A study of Homo sapiens with 4 samples.

Results

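MALAT1, NEAT1, KCNQ1OT1, GAS5, SNHG1, TUG1 and MIR22HG are long noncoding RNAs, transcripts that work as RNA or carry smaller RNAs in their introns and exons. On Affymetrix Human Genome U133 Plus 2.0 arrays they were read by 39 of the 54613 probe sets analysed, and they make up 7 of the 19873 genes that those probe sets name. A probe set is a group of short oligonucleotides whose combined brightness is reported as 1 signal. Every probe set that the probe-to-gene table assigns to one of the RNAs was taken, which gave 12 for MALAT1, 9 for NEAT1, 6 for TUG1, 5 each for KCNQ1OT1 and GAS5, and 1 each for SNHG1 and MIR22HG. The RNAs were chosen for their signals on these arrays and because probe sets of MALAT1 and of NEAT1 disagree, so their levels and that disagreement are descriptions and support nothing further.

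The study looked for genes that nicotine regulates through ARRB1 (β-arrestin-1), a scaffold protein that shuts off activated G-protein-coupled receptors. The cells were A549, a human lung adenocarcinoma line, and all of them were transfected with an siRNA and then starved of serum for 36 h. The 4 conditions were ARRB1 siRNA with nicotine, ARRB1 siRNA without it (serum starved), control siRNA with nicotine, and control siRNA without it (serum starved), and nicotine was given at 1 µM for 24 h. For the serum starved cells only the 36 h are given, and not whether they were kept a further 24 h. Nicotine and time in culture therefore cannot be told apart. Each condition is 1 array of 1 cell line, so none of the differences below could be set against replicates, no test between conditions was made, and the number of arrays is what limits precision. In place of replicate error, each log2 difference stands beside the SD of the log2 differences of the 1000 probe sets with the nearest mean signal, which describes scatter between the same pair of arrays and includes any true differences among those probe sets.

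ARRB1 RNA was lower with ARRB1 siRNA in 6 of its 7 probe sets in each pair of arrays, with a median of 65.7% of the control siRNA signal in nicotine treated cells and 54.2% in serum starved cells. The 4 arrays were alike in median signal, between 68.6 and 73.3, and in the ratio of 3′ to 5′ control probe sets, a sign of RNA integrity, which was between 0.885 and 0.940 for GAPDH and between 1.29 and 1.38 for ACTB. All 9 epithelial and A549 markers reached the median over probe sets of the mean signal (66.3), with summed signals between 126461 and 172730. Of 8 measured markers of blood, endothelial, muscle and stromal cells, PECAM1 and COL1A1 reached that level and the rest, PTPRC and CD3E among them, did not. The summed signals of all 8 were between 795 and 1029. In bulk RNA of this kind, fewer cells with an RNA and less of it per cell cannot be told apart.

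MALAT1 is a nuclear RNA that gathers at nuclear speckles, bodies rich in splicing factors, and it is widely studied in lung cancer, where it was first described. NEAT1, its neighbour on chromosome 11, is the RNA scaffold on which paraspeckles are built, bodies that hold RNA-binding proteins of the DBHS family and certain RNAs in the nucleus. KCNQ1OT1 is an imprinted antisense RNA, made from the paternal copy of the KCNQ1 locus, that silences neighbouring genes such as the cell cycle inhibitor CDKN1C. GAS5 and SNHG1 are hosts of small nucleolar RNAs (snoRNAs), which are cut out of their introns and guide chemical modification of ribosomal RNA, while the spliced host RNA is often degraded by nonsense-mediated decay when it is translated. TUG1 is a conserved RNA first described in developing retina, and MIR22HG is the primary transcript of the microRNA miR-22. NCBI RefSeq annotates 6 of the 7 genes as long noncoding and TUG1 as protein coding. In its annotation 11 snoRNA genes lie within GAS5, 9 within SNHG1, and 1 microRNA gene each within NEAT1 and MIR22HG.

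The start regions are shown because GAS5 and SNHG1 belong to a class of RNAs that are known to begin with a C followed by an unbroken run of pyrimidines (5′ TOP RNAs), and because MALAT1 has 2 annotated starts of different make-up. RefSeq (GRCh38.p14) start windows were given for 5 of the 7 RNAs. Each line holds 60 bases, 30 before the annotated start and 30 from the start base on. Capitals mark a run of at least 5 C or T that covers the start base, or the letters TATAAA.
MALAT1 start 1, chr11:65497708-65497767, plus strand: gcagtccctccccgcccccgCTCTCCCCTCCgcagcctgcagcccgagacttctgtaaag
MALAT1 start 2, chr11:65499015-65499074, plus strand: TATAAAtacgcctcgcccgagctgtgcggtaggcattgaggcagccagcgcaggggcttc
SNHG1, chr11:62855856-62855915, minus strand: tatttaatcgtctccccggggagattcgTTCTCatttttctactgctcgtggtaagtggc
GAS5, chr1:173869016-173869075, minus strand: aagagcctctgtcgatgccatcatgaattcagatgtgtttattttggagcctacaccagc

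The run at the first MALAT1 start was 11 bases long but lay before the start, with the start base C as its last letter, so the RNA annotated there does not begin with a pyrimidine run. A run of at least 11 that covers the start base, at any place in the run, occurs in 2.29% of 35116 RefSeq promoters. SNHG1 had a run of 5 with the start base, also C, in its middle, and 9.60% of promoters have a run of at least 5 over the start base. The start base that RefSeq gives for GAS5 was A, with no run. TATAAA, searched on both strands of the window from 250 bases before to 50 bases after each start, occurred once before the second MALAT1 start, 30 bases upstream, and once in SNHG1 on the opposite strand. It occurs in 11.5% of all promoters. TGACNNNGC, the core of the antioxidant response element, was found 2 times at the first MALAT1 start and in 13.3% of promoters. None of the other 5 motifs searched, the interferon-stimulated response element, TGACTCA (AP-1), TGACGTCA (cAMP response), TTTCCCGC and TTTGGCGC (both E2F), was in any window of these 5 RNAs. They occur in 3.57%, 4.95%, 1.85%, 1.63% and 0.652% of promoters, in that order.

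The microRNA inside MIR22HG is shown because the single probe set of MIR22HG is also assigned to it. Both mature forms are on the minus strand, and capitals mark the seed, bases 2 to 8, with which a microRNA pairs to its targets. The 2 seeds are not the same.
hsa-miR-22-3p, chr17:1713914-1713935: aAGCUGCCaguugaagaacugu
hsa-miR-22-5p, chr17:1713952-1713973: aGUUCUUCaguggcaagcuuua

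Of the 39 probe sets, 32 had a mean signal (geometric, over the 4 arrays) at or above 66.3, the median over all probe sets, and 7 were below it. All 12 probe sets of MALAT1, all 5 of GAS5, 8 of 9 of NEAT1, 5 of 6 of TUG1 and both single probe sets passed. All 5 probe sets of KCNQ1OT1 were below the median, so these signals do not show it as an abundant RNA. The dimmest that passed was 229301_at of TUG1, at 69.6, and the brightest that did not was 243435_at of KCNQ1OT1, at 47.9. Counts below are over the 32 that passed. Signals of different probe sets depend on their oligonucleotides and are compared only between arrays, not with each other.

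**Figure D1:**
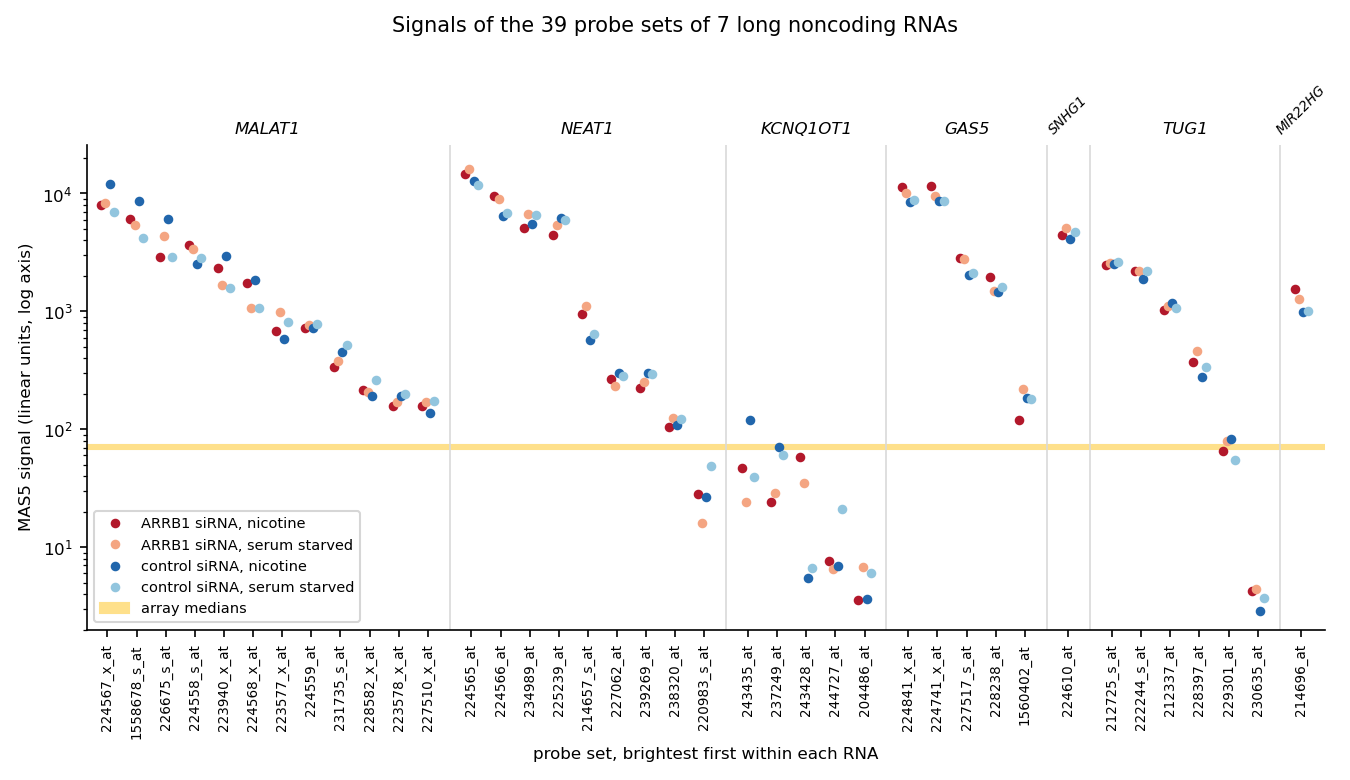
MAS5 signal (log axis) of each of the 39 probe sets on the 4 arrays, 1 point per array, grouped by RNA and ordered by mean signal within each. The yellow band spans the median signals of the arrays, 68.6 to 73.3, and all 5 KCNQ1OT1 probe sets have mean signals under it.

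With nicotine, MALAT1 in control siRNA cells was 1.73-fold to 2.10-fold higher by 5 of its 12 probe sets and lower by the other 7. All 5 were thus at least 1.5-fold higher, as were 5.10% of all 27307 probe sets at or above the median signal, and 2 were at least 2-fold higher, as were 0.989%. Probe set 226675_s_at had a signal of 2890.4 in ARRB1 siRNA cells with nicotine, 4353 in serum starved ARRB1 siRNA cells, 6118 in control siRNA cells with nicotine and 2914 in serum starved control siRNA cells. The control siRNA array with nicotine stood above the other 3 for this probe set, and the ARRB1 siRNA array with nicotine was the lowest. The nicotine difference was 1.07 on the log2 scale (SD of similar probe sets 0.15), or 2.10-fold, in control siRNA cells, and -0.59 (SD 0.22), or 0.66-fold, in ARRB1 siRNA cells.

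Probe set 1558678_s_at had 6120.1 in ARRB1 siRNA cells with nicotine, 5379 in serum starved ARRB1 siRNA cells, 8687 in control siRNA cells with nicotine and 4208 in serum starved control siRNA cells. Here too nicotine without ARRB1 siRNA gave the highest signal, and serum starvation with control siRNA the lowest. Its nicotine difference was 1.05 (SD 0.13), or 2.06-fold, in control siRNA cells and 0.19 (SD 0.20) in ARRB1 siRNA cells. Probe set 224567_x_at, the one with the highest mean signal of the 12, had 8018 in ARRB1 siRNA cells with nicotine, 8374 in serum starved ARRB1 siRNA cells, 12095 in control siRNA cells with nicotine and 7008 in serum starved control siRNA cells. The same array was highest, with a nicotine difference of 0.79 (SD 0.11) in control siRNA cells against -0.06 (SD 0.19) in ARRB1 siRNA cells.

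The remaining pair of higher MALAT1 probe sets was higher with nicotine in both kinds of cells. Probe set 224568_x_at had 1743 with nicotine against 1059 serum starved in ARRB1 siRNA cells, and 1844 against 1062 in control siRNA cells, which is 0.72 (SD 0.25) and 0.80 (SD 0.19). Probe set 223940_x_at had 2342 against 1689 in ARRB1 siRNA cells and 2971 against 1582 in control siRNA cells, or 0.47 (SD 0.25) and 0.91 (SD 0.17). For these probe sets the signals with nicotine lay above those without it whichever siRNA had been given.

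The other 7 MALAT1 probe sets did not share that pattern. Probe set 223577_x_at was lower with nicotine in both, with 680.0 against 996 in ARRB1 siRNA cells and 578 against 809 in control siRNA cells, or -0.55 (SD 0.28) and -0.49 (SD 0.23). Probe set 224558_s_at had 3678 against 3408 in ARRB1 siRNA cells and 2539 against 2830 in control siRNA cells, differences of 0.11 and -0.16 that were within or close to 1 SD (0.23 and 0.14). Probe set 224559_at was near level, between 716 and 781 on all 4 arrays. The last 4, 231735_s_at, 228582_x_at, 223578_x_at and 227510_x_at, had nicotine differences between -0.44 and -0.07 in control siRNA cells.

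The median over the 12 MALAT1 probe sets was therefore close to 0, at -0.10 for nicotine in control siRNA cells and -0.08 in ARRB1 siRNA cells. It was 0.79 in control siRNA cells when only the probe sets above the 75th percentile of mean signal were kept, and 0.79 for the probe set with the highest mean signal alone. The probe-to-gene table does not place the oligonucleotides along the RNA, so whether the 2 sets of probe sets read different stretches or isoforms of MALAT1 was not tested. The ending _x_at marks probe sets with oligonucleotides that can also bind other transcripts, and it occurred among the higher probe sets (3 of 5) and the others (4 of 7).

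**Figure D2:**
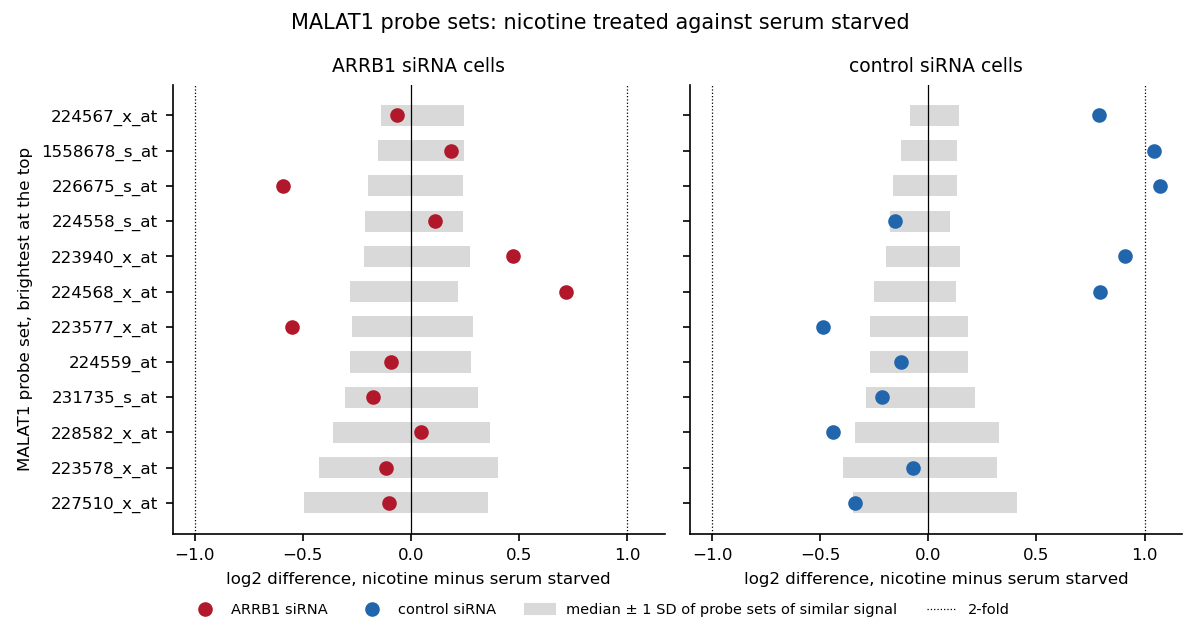
Log2 difference, nicotine minus serum starved, of the 12 MALAT1 probe sets in ARRB1 siRNA cells (left) and control siRNA cells (right), from the highest to the lowest mean signal. Grey bars show the median ± 1 SD of probe sets of similar signal and dotted lines 2-fold. In control siRNA cells 5 points lie between 0.79 and 1.07 and the other 7 at or below -0.07.

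Over all members, the 2 MALAT1 probe sets were the only ones at least 2-fold higher with nicotine in control siRNA cells, 2 of 32 (6.25%) against the 0.989% given above. The share at least 1.5-fold higher was 5 of 32 (15.6%), all of MALAT1, against 5.10%. No member was at least 2-fold lower (0 of 32), against a background of 0.436%, and none at least 1.5-fold lower, against 2.48%. With each array centred on its median, 1558678_s_at was at 0.95 and no member was 2-fold higher. These counts come from 1 RNA and from the readings by which it was chosen.

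In ARRB1 siRNA cells no member was 2-fold higher or lower with nicotine, where 0.905% and 1.22% of all probe sets were. One of 32 was at least 1.5-fold higher (MALAT1 224568_x_at, background 4.19%) and 2 were at least 1.5-fold lower (MALAT1 226675_s_at and GAS5 1560402_at, background 5.80%), shares that are near the background. Nicotine differences of the same direction in both kinds of cells were found for 5 probe sets that were higher (27.3% of all probe sets, 15.6% of members) and 11 that were lower (28.4% of all, 34.4% of members). At 1.25-fold in both, 2 were higher (MALAT1 223940_x_at and 224568_x_at, background 3.97%) and 1 lower (MALAT1 223577_x_at, background 2.39%), and at 1.5-fold in both 224568_x_at was higher (background 0.868%). The 1.25-fold limit was chosen after the values were seen. These calls all come from MALAT1, an RNA chosen partly because its probe sets disagree.

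ARRB1 siRNA set beside control siRNA split the MALAT1 probe sets again. In nicotine treated cells 5 were higher and 7 lower, with a median of -0.17, and in serum starved cells 6 were higher and 6 lower, with a median of 0.04. For 226675_s_at the ARRB1 siRNA difference was -1.08 (SD 0.27), or 0.47-fold, in nicotine treated cells and 0.58 (SD 0.25), or 1.49-fold, in serum starved cells. It was the 1 member at least 2-fold lower with ARRB1 siRNA in nicotine treated cells (3.12% of members, against 1.86% of all probe sets), and none was 2-fold higher there (background 0.996%). With each array centred on its median its difference was -0.99, and no member was 2-fold lower. For 1558678_s_at and 224567_x_at the difference was also negative in nicotine treated cells, -0.51 and -0.59, and positive in serum starved cells, 0.35 and 0.26. All comparisons within a probe set draw on the same 4 signals, so the control siRNA array with nicotine enters both the nicotine and the ARRB1 siRNA values.

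Proteins of nuclear speckles, the bodies where MALAT1 gathers, differed little. All 26 measured of 27 listed were at or above the median signal, none differed 2-fold in any comparison, and their medians were between -0.03 and 0.06 in the 4 comparisons. With ARRB1 siRNA 14 were higher and 4 lower in both pairs. The share higher was 53.8%, against 34.8% of all 12622 genes at that signal, of which 3773 were lower in both. The genes named by the rule were SRSF4 and SRSF11, which encode splicing factors of the SR family, PNN and RNPS1, which act in splicing and the exon junction complex, and U2AF1, which recognises the 3′ splice site. SRSF11 had 3749 with nicotine against 6497 serum starved in ARRB1 siRNA cells, and 5235 against 6051 in control siRNA cells. SRSF4 was lower with ARRB1 siRNA in both pairs, at 1829.7 against 2241 in nicotine treated cells and 1564 against 2253 in serum starved cells, whereas PNN was higher in both (0.43 and 0.32).

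NEAT1 did not differ by 1.5-fold with nicotine in any of its 8 probe sets at or above the median signal, and 3 of the 8 were higher with ARRB1 siRNA in both pairs of arrays while 3 were lower in both, against 30.7% and 32.6% of all probe sets at or above the median signal. All 9 NEAT1 probe sets are also assigned to MIR612, a microRNA gene within NEAT1, so neither is read alone. Probe set 214657_s_at had 945 in ARRB1 siRNA cells with nicotine, 1105 in serum starved ARRB1 siRNA cells, 566 in control siRNA cells with nicotine and 641 in serum starved control siRNA cells. Both arrays of ARRB1 siRNA cells lay above both arrays of control siRNA cells. The ARRB1 siRNA difference was 0.74 (SD 0.33), or 1.67-fold, in nicotine treated cells and 0.79 (SD 0.31), or 1.72-fold, in serum starved cells.

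Probe set 224566_at was likewise higher on both ARRB1 siRNA arrays than on both control siRNA arrays, with 9552 in ARRB1 siRNA cells with nicotine, 8928 in serum starved ARRB1 siRNA cells, 6470.1 in control siRNA cells with nicotine and 6775 in serum starved control siRNA cells. These are ARRB1 siRNA differences of 0.56 (SD 0.22) and 0.40 (SD 0.21) in nicotine treated and serum starved cells. Probe set 224565_at had 14545 in ARRB1 siRNA cells and 12809.8 in control siRNA cells with nicotine, and 16027 and 11906 in the same cells serum starved, or 0.18 (SD 0.20) and 0.43 (SD 0.17). The highest NEAT1 signal thus came from serum starved ARRB1 siRNA cells for this probe set and from nicotine treated ARRB1 siRNA cells for 224566_at.

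Other NEAT1 probe sets were lower with ARRB1 siRNA or level. Probe set 225239_at had 4420.3 in ARRB1 siRNA cells with nicotine, 5439.9 in serum starved ARRB1 siRNA cells, 6250.0 in control siRNA cells with nicotine and 5897 in serum starved control siRNA cells, or -0.50 (SD 0.24) and -0.12 (SD 0.21). Probe set 234989_at had 5088 and 5526 in nicotine treated cells with ARRB1 siRNA and control siRNA, and 6668 and 6511 in serum starved cells. It was lower with nicotine in both kinds of cells, by -0.39 (SD 0.20) with ARRB1 siRNA and -0.24 (SD 0.13) with control siRNA. The dimmer 227062_at, 239269_at and 238320_at had signals between 105 and 302 and ARRB1 siRNA differences between -0.42 and 0.03.

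The median over the 8 NEAT1 probe sets was -0.09 for ARRB1 siRNA in nicotine treated cells and 0.03 in serum starved cells. In serum starved cells it was 0.40 with only the probe sets above the 75th percentile of signal and 0.43 for the probe set with the highest mean signal alone. In nicotine treated cells it was 0.18 under either choice, so its sign changed. Nicotine medians were -0.19 in ARRB1 siRNA cells and -0.01 in control siRNA cells. The ninth probe set, 220983_s_at, was below the median signal, between 16.0 and 49.1 on the 4 arrays, where probe sets of similar signal scatter with SDs between 1.14 and 1.26.

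Paraspeckle proteins, which assemble on NEAT1, showed no 2-fold difference in any comparison. Of 27 measured of 28 listed, all at or above the median signal, 15 were higher and 2 lower with ARRB1 siRNA in both pairs (55.6% of them higher, against 34.8% of all 12622 genes at that signal), with medians of 0.11 in nicotine treated and 0.10 in serum starved cells. Of those 12622 genes, 3773 were lower in both pairs. Nuclear speckle proteins had nearly the same share higher in both, 53.8%. NUDT21, a cleavage factor that sets where NEAT1 and other transcripts end, was lower with ARRB1 siRNA in both pairs, at 2619 against 3632 with nicotine and 3215 against 4134 serum starved. MATR3, a nuclear matrix RNA-binding protein, was higher in both, at 699 against 543 and 581 against 388. The values for RBM7 were 0.39 and 0.34, and for RBM12 0.45 and 0.31, in nicotine treated and serum starved cells, while ZNF24 had -0.39 and 0.16.

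KCNQ1OT1 was read only by dim probe sets, and these gave no common picture. Probe set 243435_at had 46.5 in ARRB1 siRNA cells with nicotine, 23.9 in serum starved ARRB1 siRNA cells, 120.3 in control siRNA cells with nicotine and 39.3 in serum starved control siRNA cells. The nicotine differences, 0.96 in ARRB1 siRNA cells and 1.61 in control siRNA cells, compare with SDs of 0.88 and 0.84 at that signal. Probe set 237249_at had 24.1, 29.1, 71.1 and 60.9 on the same 4 arrays in that order, so that both arrays of ARRB1 siRNA cells were below both arrays of control siRNA cells (-1.56 and -1.07, SD 0.95 and 0.96).

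Probe set 243428_at of KCNQ1OT1 ran the other way, with 58.7 in ARRB1 siRNA cells and 5.53 in control siRNA cells under nicotine, and 35.1 and 6.65 in the same cells serum starved. Its ARRB1 siRNA difference in nicotine treated cells was 3.41 as deposited and 1.83 once signals under the 25th percentile of all signals (16.5) were set to that value. The other 2 probe sets, 244727_at and 204486_at, were between 3.56 and 21.3. Without a filter on signal, ARRB1 siRNA gave a 2-fold higher signal for 10.4% and a 2-fold lower signal for 11.7% of all 54613 probe sets in nicotine treated cells. Among probe sets at or above the median signal these shares were 0.996% and 1.86%, so most 2-fold differences lay among dimmer probe sets.

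Genes of the imprinted KCNQ1 domain, which KCNQ1OT1 silences in cis, had medians between -0.03 and 0.04 over the 8 of 13 listed that reached the median signal (11 were measured). CDKN1C had 227 in ARRB1 siRNA cells with nicotine, 228 in serum starved ARRB1 siRNA cells, 375 in control siRNA cells with nicotine and 409.6 in serum starved control siRNA cells. It was thus lower with ARRB1 siRNA in both nicotine treated and serum starved cells (-0.72 and -0.85), and little different with nicotine in ARRB1 siRNA and control siRNA cells (-0.01 and -0.13). PHLDA2, an imprinted gene that restrains placental growth, had 0.10 and 0.22 with ARRB1 siRNA in nicotine treated and serum starved cells, and CARS1, the cysteine tRNA synthetase gene at the edge of the domain, 0.34 and 0.17. TSSC4 had 0.15 and -0.21, and TSPAN32 -0.18 and -0.27, in nicotine treated and serum starved cells.

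GAS5 was higher with ARRB1 siRNA in nicotine treated cells by 4 of its 5 probe sets and in serum starved cells by 4 of 5, with medians of 0.40 and 0.20 (0.28 and 0.08 after quantile normalization). These were not the same 4 probe sets, and 3 of the 5 were higher in both pairs and none lower. The shares of all probe sets at or above the median signal were 30.7% and 32.6%. Probe set 227517_s_at had 2839 in ARRB1 siRNA cells with nicotine, 2803 in serum starved ARRB1 siRNA cells, 2033 in control siRNA cells with nicotine and 2110.0 in serum starved control siRNA cells. Both ARRB1 siRNA arrays were above both control siRNA arrays, by 0.48 (SD 0.27) with nicotine and 0.41 (SD 0.24) without it. Nicotine itself made a difference of 0.02 in ARRB1 siRNA cells and -0.05 in control siRNA cells for this probe set.

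The 2 GAS5 probe sets with the highest mean signals gave smaller values in serum starved cells. Probe set 224841_x_at had 11256 in ARRB1 siRNA cells and 8524 in control siRNA cells with nicotine, and 10119 and 8827 in the same cells serum starved, or 0.40 (SD 0.21) and 0.20 (SD 0.19). Probe set 224741_x_at had 11465 in ARRB1 siRNA cells and 8677 in control siRNA cells with nicotine, and 9571 and 8554 serum starved, or 0.40 (SD 0.21) and 0.16 (SD 0.19). The order of the arrays was again ARRB1 siRNA above control siRNA, and nicotine above serum starved among the ARRB1 siRNA cells.

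Probe set 228238_at of GAS5 had 1938 in ARRB1 siRNA cells with nicotine, against 1474 to 1617 on the other 3 arrays. Its ARRB1 siRNA difference was 0.40 (SD 0.28) in nicotine treated and -0.11 (SD 0.25) in serum starved cells. These 4 probe sets are also assigned to snoRNAs within GAS5. The only one assigned to GAS5 alone, 1560402_at, gave the opposite in nicotine treated cells. Its lowest signal, 119.8, was on the array of ARRB1 siRNA cells with nicotine. It had 219, 184 and 181 on the arrays of serum starved ARRB1 siRNA cells, nicotine treated control siRNA cells and serum starved control siRNA cells. Its nicotine difference in ARRB1 siRNA cells was -0.87 (SD 0.42). Its ARRB1 siRNA difference was -0.62 (SD 0.45) in nicotine treated and 0.28 (SD 0.40) in serum starved cells.

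SNHG1, read by 224610_at (also assigned to snoRNAs within it), had 4448 in ARRB1 siRNA cells with nicotine, 5062 in serum starved ARRB1 siRNA cells, 4075 in control siRNA cells with nicotine and 4722 in serum starved control siRNA cells. The arrays with nicotine were below those without it for either siRNA, by -0.19 (SD 0.21) with ARRB1 siRNA and -0.21 (SD 0.15) with control siRNA. With ARRB1 siRNA the difference was 0.13 (SD 0.24) in nicotine treated and 0.10 (SD 0.22) in serum starved cells, within 1 SD in both.

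Other snoRNA host RNAs were higher in both pairs with ARRB1 siRNA more often than lower. The list leaves out GAS5, SNHG1 and DANCR, a snoRNA host given below with the other long noncoding RNAs. Of 18 at or above the median signal (21 measured of 25 listed), 10 were higher and 1 lower in both pairs of arrays, none differed 2-fold in any comparison, and their medians were 0.19 in nicotine treated and 0.12 in serum starved cells. The share higher in both was 55.6%, against 34.8% of all genes at that signal, of which 3773 of 12622 were lower in both. Such a share was not particular to this list, as it was 55.6% for paraspeckle and 53.8% for nuclear speckle proteins. Of the 9 epithelial and A549 markers, 7 were higher (77.8%) and 2 lower in both pairs. The list medians were 0.12 and 0.05 after quantile normalization. SNHG19 had 5793 with ARRB1 siRNA against 4133 with control siRNA in nicotine treated cells, and 5797 against 3644 in serum starved cells. The differences in nicotine treated and serum starved cells were 0.44 and 0.35 for SNHG3 and 0.37 and 0.45 for SNHG9. LINC-PINT, which the list also holds and which counts among the 10, had 0.71 and 0.52. Whether LINC-PINT carries snoRNAs was not checked here, so it is not given as an example of a host.

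Bright probe sets as a whole were higher on those same arrays. The messenger RNAs of ribosomal proteins and translation factors, which are known as 5′ TOP RNAs too, were higher with ARRB1 siRNA in both pairs in 42 of 42 measured genes (51 listed), against the 34.8% of all genes given above, with medians of 0.33 in nicotine treated and 0.25 in serum starved cells (0.26 and 0.53 for RPL14, 0.29 and 0.49 for RPL27, 0.41 and 0.49 for NPM1). They were also higher with nicotine, by medians of 0.25 in ARRB1 siRNA cells and 0.19 in control siRNA cells. The 200 brightest probe sets of any gene had ARRB1 siRNA medians of 0.34 and 0.23, and the next 800 had 0.17 and 0.15, while ranks 1001 to 5000 had 0.04 and 0.01. After quantile normalization the medians of these messenger RNAs were 0.03 and 0.01, so brightness and class of RNA cannot be told apart.

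Set against the median of the 200 probe sets nearest in signal, the ARRB1 siRNA differences of GAS5 224841_x_at became 0.27 in nicotine treated and 0.07 in serum starved cells, and those of 224741_x_at 0.27 and 0.04. For NEAT1 they became 0.01 and 0.26 for 224565_at and 0.47 and 0.29 for 224566_at. Dimmer members moved less, as with 0.48 and 0.43 for GAS5 227517_s_at and 0.77 and 0.84 for NEAT1 214657_s_at.

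**Figure D3:**
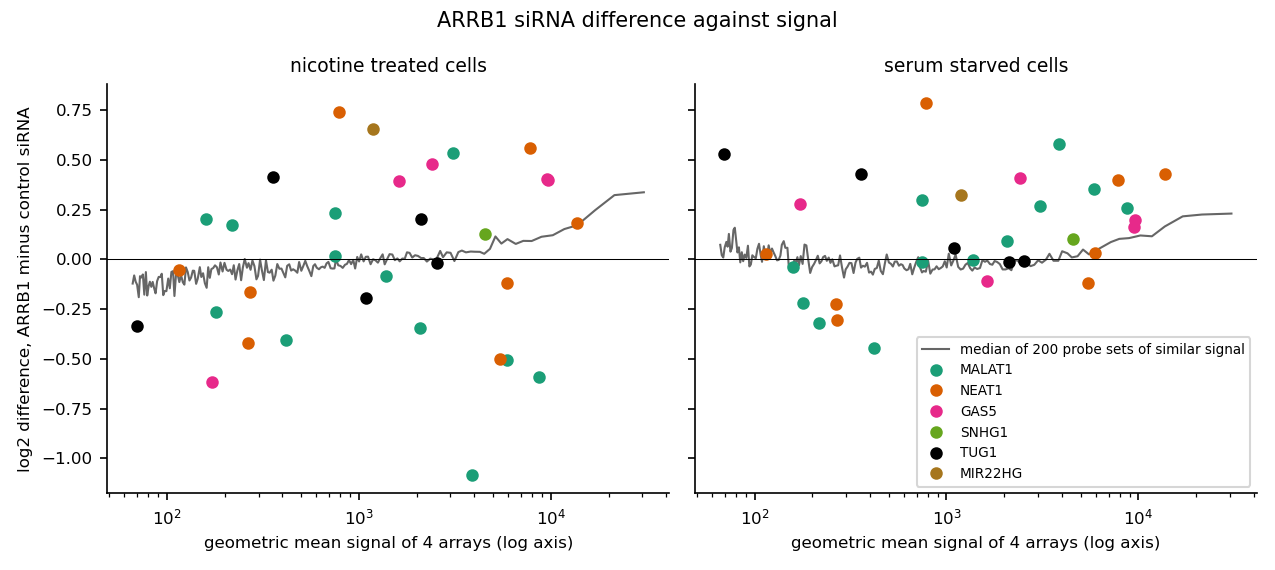
Log2 difference, ARRB1 siRNA minus control siRNA, against geometric mean signal (log axis) for the 32 member probe sets at or above the median signal, in nicotine treated cells (left) and serum starved cells (right). The grey line is the median of 200 probe sets of similar signal and bends upward at the bright end, where NEAT1 and GAS5 probe sets lie.

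Factors of nonsense-mediated decay, the pathway that removes spliced GAS5 and SNHG1, had medians between -0.02 and 0.05 over 14 measured of 19 listed, and none differed 2-fold. With ARRB1 siRNA 7 of the 14 were higher and 0 lower in both pairs. The share higher was 50%, against 34.8% of all 12622 genes at the median signal or above, of which 3773 were lower in both. UPF2, a core factor, had 0.21 and 0.33 with ARRB1 siRNA in nicotine treated and serum starved cells, RBM8A of the exon junction complex 0.26 and 0.20, and the helicase DHX34 0.24 and 0.31. The endonuclease SMG6 had -0.77 and 0.02, with 137 against 234 in nicotine treated cells, and the exonuclease XRN1 had 0.00 and -0.12.

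The 3 TUG1 probe sets with the highest mean signals differed little between arrays. Probe set 212725_s_at had 2481 in ARRB1 siRNA cells with nicotine, 2593 in serum starved ARRB1 siRNA cells, 2512 in control siRNA cells with nicotine and 2603 in serum starved control siRNA cells. Its 4 differences were between -0.06 and -0.01. Probe set 222244_s_at was between 1892 and 2199.9 and 212337_at between 1022 and 1169.

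One TUG1 probe set, 228397_at, was higher with ARRB1 siRNA in both pairs, at 373 against 280.1 in nicotine treated cells and 457 against 340 in serum starved cells. These are differences of 0.41 (SD 0.40), or 1.33-fold, and 0.43 (SD 0.37), or 1.35-fold, and so about 1 SD. It was also lower with nicotine in both, by -0.29 in ARRB1 siRNA cells and -0.28 in control siRNA cells (SD 0.33 and 0.28). The dim 229301_at was between 55.0 and 82.3 and 230635_at between 2.88 and 4.39.

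MIR22HG, the host of miR-22, had 1547 in ARRB1 siRNA cells with nicotine, 1271 in serum starved ARRB1 siRNA cells, 982 in control siRNA cells with nicotine and 1017 in serum starved control siRNA cells (214696_at). Both ARRB1 siRNA arrays were higher than both control siRNA arrays. The ARRB1 siRNA difference was 0.66 (SD 0.31), or 1.57-fold, in nicotine treated cells and 0.32 (SD 0.28), or 1.25-fold, in serum starved cells. With nicotine it was 0.28 (SD 0.25) in ARRB1 siRNA cells and -0.05 (SD 0.20) in control siRNA cells. The array reads the host or its precursor and not the 22-base mature forms printed above.

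Over the 32 probe sets, ARRB1 siRNA gave 11 that were higher by any amount in both pairs (34.4%, against 30.7% of all probe sets at or above the median signal) and 7 that were lower (21.9%, against 32.6%). At the limit of 1.25-fold in both pairs, chosen after the values were seen and with MIR22HG at its edge, 5 were higher (15.6%, against 4.73%), namely NEAT1 224566_at and 214657_s_at, GAS5 227517_s_at, TUG1 228397_at and MIR22HG 214696_at, and 1 was lower, MALAT1 231735_s_at (3.12%, against 7.15%). At 1.5-fold in both, 214657_s_at remained (background 1.12%). In nicotine treated cells 2 were at least 1.5-fold higher (NEAT1 214657_s_at and MIR22HG 214696_at, background 4.19%) and 3 at least 1.5-fold lower (MALAT1 226675_s_at and 224567_x_at and GAS5 1560402_at, background 8.28%). In serum starved cells none was 2-fold higher or lower, against 1.24% and 1.06% of all probe sets, while 1 was at least 1.5-fold higher (NEAT1 214657_s_at, background 5.72%) and none 1.5-fold lower (background 5.32%). Against probe sets of similar signal, 15 were higher and 6 lower in both pairs, each against a background of 31.1%.

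**Figure D4:**
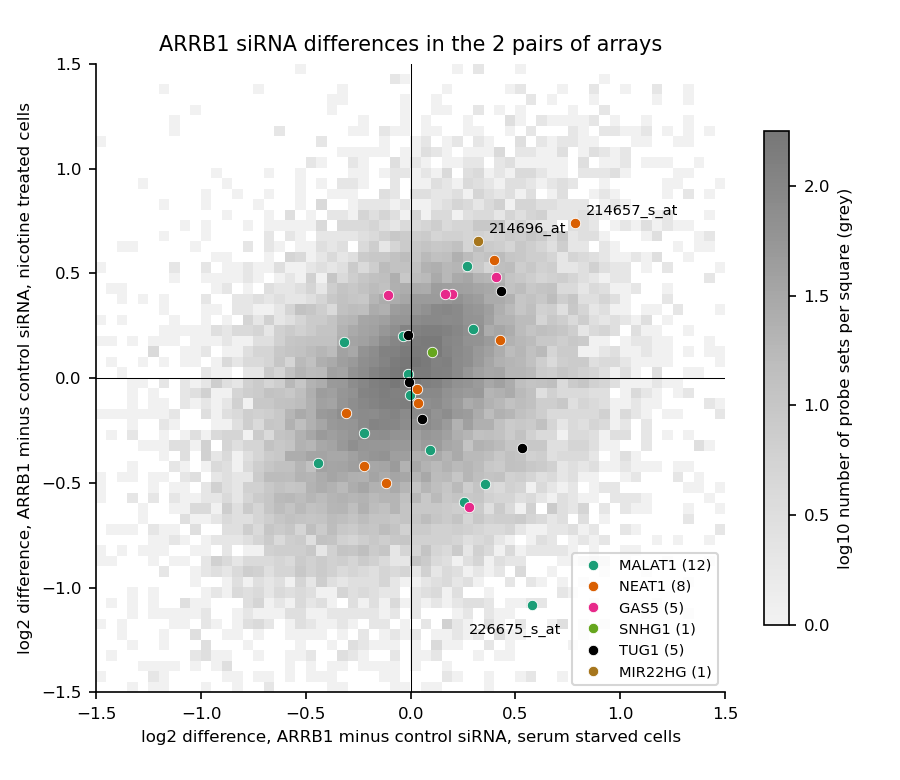
Log2 difference, ARRB1 siRNA minus control siRNA, in serum starved cells (horizontal) and nicotine treated cells (vertical) for the 32 member probe sets, coloured by RNA, over all probe sets at or above the median signal (grey squares). NEAT1 214657_s_at, at 0.74 in nicotine treated and 0.79 in serum starved cells, is the farthest member at the upper right, and MALAT1 226675_s_at, at -1.08 and 0.58, the farthest at the lower right.

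Interferon-stimulated genes, which carry out the antiviral response, stood apart with ARRB1 siRNA. All 26 interferon-stimulated genes at or above the median signal were lower in both pairs, with medians of -1.73 in nicotine treated and -1.22 in serum starved cells, and 22 and 17 of them were at least 2-fold lower. Of all 12622 genes at that signal, 3773 were lower in both pairs, and 175 and 98 were at least 2-fold lower. IFIT1, an antiviral RNA-binding protein, had 865 in ARRB1 siRNA cells against 8735 in control siRNA cells with nicotine, and 1627 against 6694 serum starved. NEAT1 is known to be induced by viral RNA in other cells, and the part of this shift in the member values was not tested.

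Of 34 other long noncoding RNAs at or above the median signal (43 measured of 49 listed), 14 were higher with ARRB1 siRNA in both pairs (41.2%, against 34.8% of all genes at that signal). In both pairs 7 were lower, against 3773 of all 12622 genes. The medians of the 34 were 0.04 in nicotine treated and 0.08 in serum starved cells. DANCR, an RNA that holds back differentiation and hosts snoRNAs, had 2589.6 in ARRB1 siRNA cells with nicotine, 1709 in serum starved ARRB1 siRNA cells, 1219.5 in control siRNA cells with nicotine and 1401 in serum starved control siRNA cells. Its ARRB1 siRNA difference in nicotine treated cells was 1.09, above that of any member probe set at or above the median signal. GABPB1-AS1 (0.71 and 0.40) and PCAT6 (0.70 and 0.58) were higher in both pairs, and JPX, a noncoding RNA of the X inactivation centre, was lower (-0.69 and -0.60). With nicotine, MIR4435-2HG had 1.29 in ARRB1 siRNA cells and 0.78 in control siRNA cells, and HOXA-AS2 -0.40 and -0.78.

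The genes whose 4 signals ran most like a member were found by the root mean square distance between log2 signals over the 4 arrays, each centred on its own mean, among 12621 or 12622 genes, for the 3 RNAs whose probe set of highest mean signal had the widest range. For MALAT1 224567_x_at (1.73-fold between highest and lowest array) they were TLR6 and GRIK2, both at a distance of 0.029, and MIR600HG at 0.049. For MIR22HG (1.57-fold) they were CATSPER3 at 0.012, ARHGAP23 at 0.014 and ANXA10 at 0.026. For KCNQ1OT1 243435_at (5.02-fold) the nearest, ZBED6, was at 0.20, followed by CAMK1D at 0.28 and BPIFA3 at 0.30. With 4 arrays many genes come close by their number alone, and the likeness is a description of these 4 values.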

How the data were processed

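RNA of A549 cells was read on 4 arrays. The authors computed the deposited linear signal intensities with the MAS5 algorithm (GCOS 1.4 per the submitters' processing notes) and scaled each array to the same trimmed mean, which was 500.1 when 2% was cut from either end. Log2 transformation and centring, which the paper's methods mention, are not in them. Detection calls were not used here.

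Log2 differences came from scripts in Python 3.11.15 (numpy 2.4.6, pandas 2.3.3; figures by matplotlib 3.10.9), and the procedure was tested on simulated data. The 62 control probe sets were left out. Probe sets assigned to a host RNA and to small RNA genes within it were given to the host (279 probe sets). A gene is its probe set of highest mean signal. Named are all member probe sets, ARRB1, up to 4 genes of each list with the largest mean ARRB1 siRNA difference and up to 2 with the largest mean nicotine difference, and 3 nearest profiles for each of 3 members. The members and lists were chosen with earlier results of these data known. Alternatives were centring, quantile normalization, a floor, a 1.5-fold limit, other signal filters, other choices among probe sets and, added after seeing the data, subtraction of the median of similar probe sets and probe sets with 1 symbol alone.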

Additional observations from a re-analysis of the deposited data

Results flagged for a closer look

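For 2 probe sets the signals differed by at least 1.5-fold with nicotine in opposite directions in the 2 kinds of cells. MALAT1 226675_s_at had a log2 difference of -0.59 in ARRB1 siRNA cells and 1.07 in control siRNA cells. NEAT1 220983_s_at had 0.82 in ARRB1 siRNA cells and -0.89 in control siRNA cells, at signals below the median of all probe sets and with differences smaller than the SD of similar probe sets. With 1 array per condition the difference between the 2 kinds of cells was not tested.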

How the results depend on the processing

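No paired analysis was possible because each condition is 1 array and the labels carry no replicate numbers. No result of at least 2-fold turned its direction. Of the member differences per probe set, 623 of 624 values under another scaling, a floor or subtraction of the similar-signal median stayed within 1 SD of similar probe sets of the value given, and the exception was KCNQ1OT1 243428_at with the floor (1.83). Centring moves all probe sets of a comparison by the same amount, which was smaller than these SDs, and the floor alters only signals under it. Much of that count was therefore fixed in advance, and it does not show that the differences were stable. Centring each array on its median left 0 members at least 2-fold higher with nicotine in control siRNA cells (MALAT1 1558678_s_at was then 0.95) and 0 at least 2-fold lower with ARRB1 siRNA in nicotine treated cells (226675_s_at was then -0.99). At a limit of 1.5-fold, nicotine counts (higher, then lower) were 1 and 2 with ARRB1 siRNA and 5 and 0 with control siRNA, and ARRB1 siRNA counts were 2 and 3 under nicotine and 1 and 0 under serum starvation. Without a filter on signal, 1 of 39 members was at least 2-fold higher with ARRB1 siRNA under nicotine (2.56%, against 10.4% of all probe sets). In that comparison 3 were at least 2-fold lower (7.69%, against 11.7%). For the other comparisons the share of all probe sets without the filter was not computed, so no count is given. The dim probe sets past 2-fold there were KCNQ1OT1 243435_at (1.61) and 244727_at (-1.61) for nicotine with control siRNA. For ARRB1 siRNA under serum starvation they were KCNQ1OT1 243428_at (2.40), 237249_at (-1.07) and 244727_at (-1.70) and NEAT1 220983_s_at (-1.62). The MALAT1 nicotine median with control siRNA was 0.79 above the 75th percentile of signal and 0.79 for the brightest probe set alone, and its ARRB1 siRNA median in nicotine treated cells was -0.59 for the brightest probe set alone. The NEAT1 median for ARRB1 siRNA in serum starved cells was 0.40 and 0.43 under the same choices, and -0.05 after centring. In nicotine treated cells it was 0.18 under both choices, against -0.09. All 160 list medians stayed within the median SD of similar probe sets, although that of 5′ TOP messenger RNAs for ARRB1 siRNA under nicotine was 0.03 after quantile normalization against 0.33, and 28 of 384 list counts moved past 1.5 times. That SD is of single probe sets and most list medians were smaller than it, so staying within it does not show that they were stable. Low signal limits KCNQ1OT1, 2 TUG1 probe sets and 1 NEAT1 probe set most.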
